A study of Mus musculus with 6 samples.

Results

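Type I interferon-stimulated genes were read in the livers of 2 genotypes of mice given alcohol. In ACSS2-HKO (3 libraries) the Acss2 gene is deleted in hepatocytes, and in ACSS2-flox (3 libraries), the control, it is floxed. ACSS2 is the enzyme that makes acetyl-CoA from acetate in the cytosol and nucleus. Every mouse of both genotypes had been kept for 10 days on the Lieber-DeCarli liquid diet with ethanol and given 1 ethanol binge, so the interferon genes were compared between genotypes under alcohol, with no unexposed liver in the comparison. The labels used here name neither the Cre line that deletes the gene nor the strain, sex or age, and they do not say whether each library is a different animal. The p-values therefore measure the spread between these libraries, which may be partly technical. The members are 35 genes chosen by name as interferon-stimulated, with no threshold on expression. Of these, 33 had a row among the 16135 genes of the table, and Mx1 and Mx2 were not analysed here. The values are FPKM, fragments scaled to gene length and to the library total, and 32 of the 33 genes reached the mean of 1 FPKM over the 6 libraries that was required for testing. Oas3 did not (0.820 FPKM).

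Type I interferons are secreted by cells that sense foreign or misplaced nucleic acid. They bind the receptor made of IFNAR1 and IFNAR2, whose kinases JAK1 and TYK2 phosphorylate STAT proteins. STAT2 and IRF9 are subunits of the factor ISGF3, which binds the interferon-stimulated response element in the promoters of its target genes. The targets block virus entry, translation and replication, and in the liver they are made by hepatocytes as well as by Kupffer cells, endothelial cells and lymphocytes. Some of them, among them Irf1 and the guanylate-binding proteins, also respond to interferon gamma through a different element.

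The promoters are shown because the response element is the textbook link between interferon and its target genes. The members differ in whether a match to its core was found near the annotated start. RefSeq windows (GRCm38.p6, the mm10 assembly that the submitters' processing notes name) of 250 bases before to 50 after the start were matched by gene ID for 25 members, 29 windows in all. The core of the response element was searched on both strands as GAAA, any 2 bases, and GAAA again, overlapping copies included, and the element of the interferon gamma response as TTCNNNGAA. The first was found in 14 of the 29 member windows, against 3.44% of 32851 windows of the same length over all genes. The second was found in 5 of the 29, against 8.30% of all windows. Only exact matches inside these windows were counted. In some windows, those of Stat2, Herc6, Ifit3b, Gbp7 and Bst2 among them, the bases after the start matched no GENCODE transcript of the gene. The start of a window was not always the edge of the annotated gene span, and the windows of Ifit3 and Ifit3b lie inside those spans. The last 120 bases before the start used for the window are printed 5′ to 3′ on the gene's strand for 7 members, with matches to either motif in capitals. For Oas1a and Gbp3 the last bases printed lie inside the annotated gene spans, which reach to chr5:120907544 and begin at chr3:142560016. These 7 do not stand for all members, as 14 of the 25 members with a window held the first motif. In the same stretch of Oasl1 (chr5:114923120-114923239), which is not printed, neither motif was found. Most of that stretch lies inside the annotated gene span, which begins at 114923143, so it says little about the bases upstream of the gene.
Isg15, chr4:156200819-156200938, minus strand: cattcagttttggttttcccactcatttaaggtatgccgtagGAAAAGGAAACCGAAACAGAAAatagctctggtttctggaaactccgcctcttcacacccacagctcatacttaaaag
Ifit1, chr19:34640769-34640888, plus strand: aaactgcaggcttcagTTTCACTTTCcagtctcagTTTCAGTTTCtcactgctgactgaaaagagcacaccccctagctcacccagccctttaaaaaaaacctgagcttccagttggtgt
Rsad2, chr12:26456453-26456572, minus strand: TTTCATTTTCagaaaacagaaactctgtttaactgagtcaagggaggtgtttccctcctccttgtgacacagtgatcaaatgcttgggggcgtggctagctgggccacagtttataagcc
Gbp3, chr3:142559924-142560043, plus strand: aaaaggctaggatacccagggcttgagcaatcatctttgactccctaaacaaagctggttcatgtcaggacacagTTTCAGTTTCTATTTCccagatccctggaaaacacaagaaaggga
Oas1a, chr5:120907526-120907645, minus strand: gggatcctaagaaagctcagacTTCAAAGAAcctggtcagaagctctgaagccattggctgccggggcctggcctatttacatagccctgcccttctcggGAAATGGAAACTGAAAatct
Oas1g, chr5:120887614-120887733, minus strand: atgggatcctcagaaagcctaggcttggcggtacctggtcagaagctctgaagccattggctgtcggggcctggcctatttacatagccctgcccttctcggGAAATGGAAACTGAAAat
Irf1, chr11:53769894-53770013, plus strand: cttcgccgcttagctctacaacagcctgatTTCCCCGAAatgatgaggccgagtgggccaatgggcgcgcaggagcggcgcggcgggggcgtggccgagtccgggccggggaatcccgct
Isg15 carries 3 overlapping copies of the response element core. Oas1a and Oas1g, which are neighbours, carry the same run of bases just before the start used for the window. In Oas1a nearly all of that run lies inside the annotated gene span. Irf1 holds the second motif and not the first in this stretch, which says only that those letters are absent there. Of the 13 tested members with this core in a window, 9 read higher in ACSS2-HKO on the log2 scale, against 66.0% of all genes tested. The median log2 fold change of the 13 was 0.24 and the range -0.46 to 0.51. All 11 tested members with a window but without a match to the core in it were positive, with a median of 0.23 and a range from 0.01 to 0.83. Of these, Irf9, Herc6, Xaf1 and Ifi44 turned negative under median ratio scaling, as did Ifih1 and Isg15, which hold the core. Whether the core bears on the genotype difference was not tested.

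The implied depth was 35362997 to 39474527 fragments in the ACSS2-HKO libraries and 33717125 to 38321306 in the ACSS2-flox libraries, recovered from the steps of the FPKM values. Members were covered by 39 (Oas1g, ACSS2-flox replicate 1) to 6457 fragments (Bst2, ACSS2-HKO replicate 2) in a library. Acss2 itself read 50.6, 38.4 and 45.7 FPKM in ACSS2-HKO and 87.8, 61.5 and 58.5 FPKM in ACSS2-flox, lower in every ACSS2-HKO library than in any control. The ACSS2-HKO mean was still 0.648 times the control mean. The log2 fold change was -0.60 (limma adjusted p = 0.637), and -0.42 without ACSS2-flox replicate 1. On the first principal component of all tested genes, ACSS2-HKO replicate 3 lay at -27.6 and ACSS2-flox replicate 1 at 47.7, both distant from the other 4 at -8.49 to -2.51. Results that rest on them are given with and without them. The liver label was borne out by Alb, the albumin gene, at 38187 to 42064 FPKM in ACSS2-HKO and 43383 to 59759 FPKM in ACSS2-flox.

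No interferon-stimulated gene passed the adjusted threshold between the genotypes (limma on log2(FPKM + 1), two-sided, Benjamini-Hochberg adjusted p under 0.05), and none of all 9818 genes tested did (0.00%). The members had mostly small positive differences. Ifi27l2b, of the interferon alpha-inducible 27 family, stood out at 4.40 times the control mean, and Oasl1 at 2.10 times. Ifit1, Ifit3 and Ifit3b, which encode RNA-binding antiviral proteins, had negative log2 fold changes, Isg15 was at 0.01, and Usp18, the enzyme that removes ISG15 from proteins and damps receptor signalling, was lower in each ACSS2-HKO library. Each log2 fold change is the ACSS2-HKO mean less the ACSS2-flox mean and is given ± its standard error.

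Of the 32 tested members 27 had positive log2 fold changes, while 66.0% of all tested genes did. The median was 0.27 over the tested members and 0.28 over the 33 present, against 0.10 over all genes tested. At an unadjusted p under 0.05, 3 members were higher (Ifi27l2b, Oasl1 and Irf1) and 1 was lower (Usp18), against 6.09% and 1.50% of all genes. The 2 groups of libraries did not overlap for 6 members that were higher in ACSS2-HKO (Irf1, Stat2, Oas1g, Oas2, Oasl1 and Ifi27l2b), against 12.5% of all genes. These counts moved with the libraries. Without ACSS2-HKO replicate 1, 9 members were higher and 3 lower without overlap, against 18.3% and 6.02% of all genes. Without ACSS2-HKO replicate 2 they were 11 and 1, against 18.5% and 6.72%, and without ACSS2-HKO replicate 3 they were 6 and 1, against 16.8% and 3.46%. Leaving out ACSS2-flox replicate 1 gave 11 and 2, against 16.6% and 14.6%, leaving out ACSS2-flox replicate 2 gave 7 and 1, against 18.5% and 7.10%, and leaving out ACSS2-flox replicate 3 gave 6 and 1, against 21.8% and 4.48%. Without both distant libraries 11 members were higher and 2 lower, against 23.4% and 17.7% of all genes. With all libraries, Usp18 was the only member whose ACSS2-HKO values all lay below the controls, against 2.94% of all genes. Oas1g and Oas2 averaged under 1 FPKM in ACSS2-flox and were tested only through their ACSS2-HKO values. When ACSS2-HKO replicate 3 was left out, the members had a median of 0.09, against 0.11 for all genes, so their median was then not above that of all genes. Without ACSS2-flox replicate 1 it was 0.41 against 0.01, and without both it was 0.16 against 0.03.

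**Figure D1:**
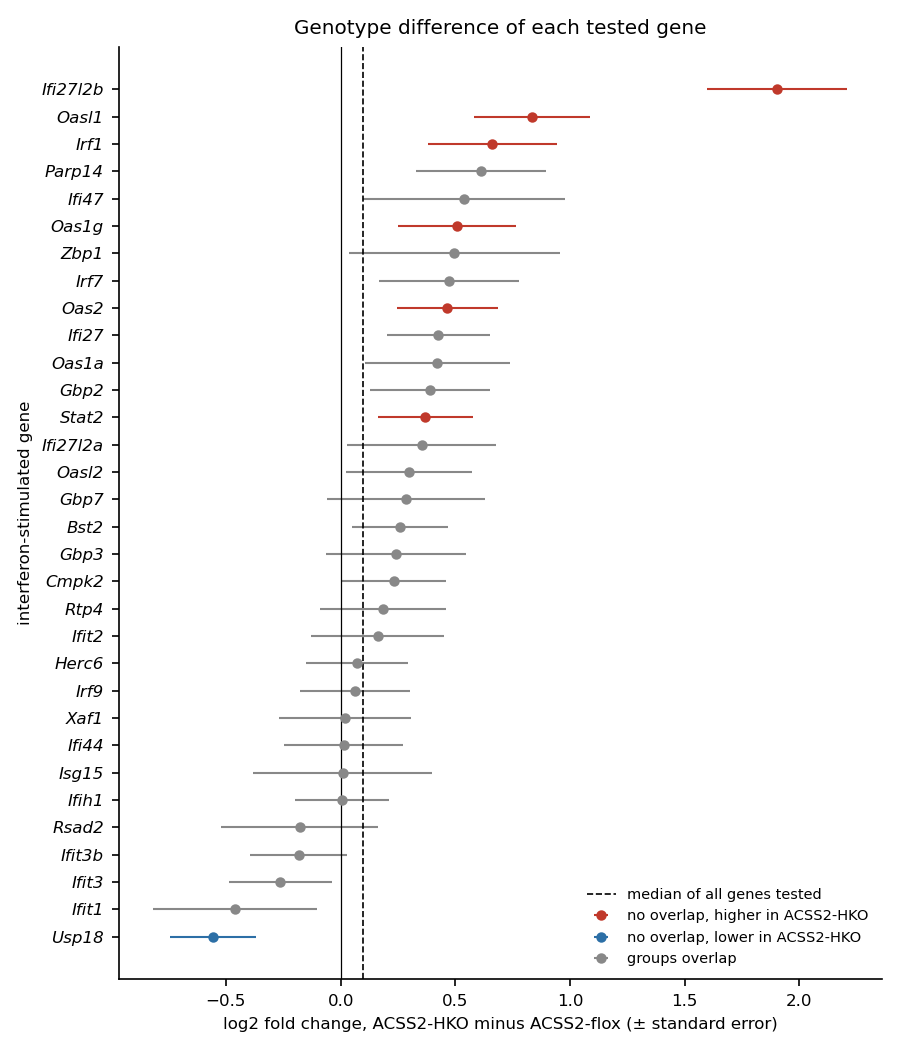
Log2 fold change (ACSS2-HKO minus ACSS2-flox, on log2(FPKM + 1)) of the 32 tested interferon-stimulated genes, with bars of ± 1 standard error, n = 3 libraries per genotype. Red points are genes whose ACSS2-HKO libraries all lie above the ACSS2-flox libraries, the blue point a gene with all below, grey points overlap, and the dashed line is the median of all genes tested (0.10). Ifi27l2b lies farthest right at 1.90 and Usp18 farthest left at -0.55.

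Libraries of the same genotype stood apart from each other. ACSS2-HKO replicate 3 held the highest of the 6 values for 15 of the 32 tested members, against 21.3% of all genes. ACSS2-HKO replicate 2 held the lowest of all 6 values for 10 of 32, against 4.26% of all genes. It was the lowest of its own group for 26 of 32, for which no share over all genes was computed. Measured from the mean of the controls, the median member deviated by 0.22, -0.15 and 0.50 in ACSS2-HKO replicates 1, 2 and 3, and 0.07, 0.01 and -0.14 in ACSS2-flox replicates 1, 2 and 3. A library with high and a library with low interferon-stimulated genes were thus in the same group. Over all genes these medians ran from 0.06 to 0.12 in ACSS2-HKO and from -0.18 to 0.12 in ACSS2-flox.

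**Figure D2:**
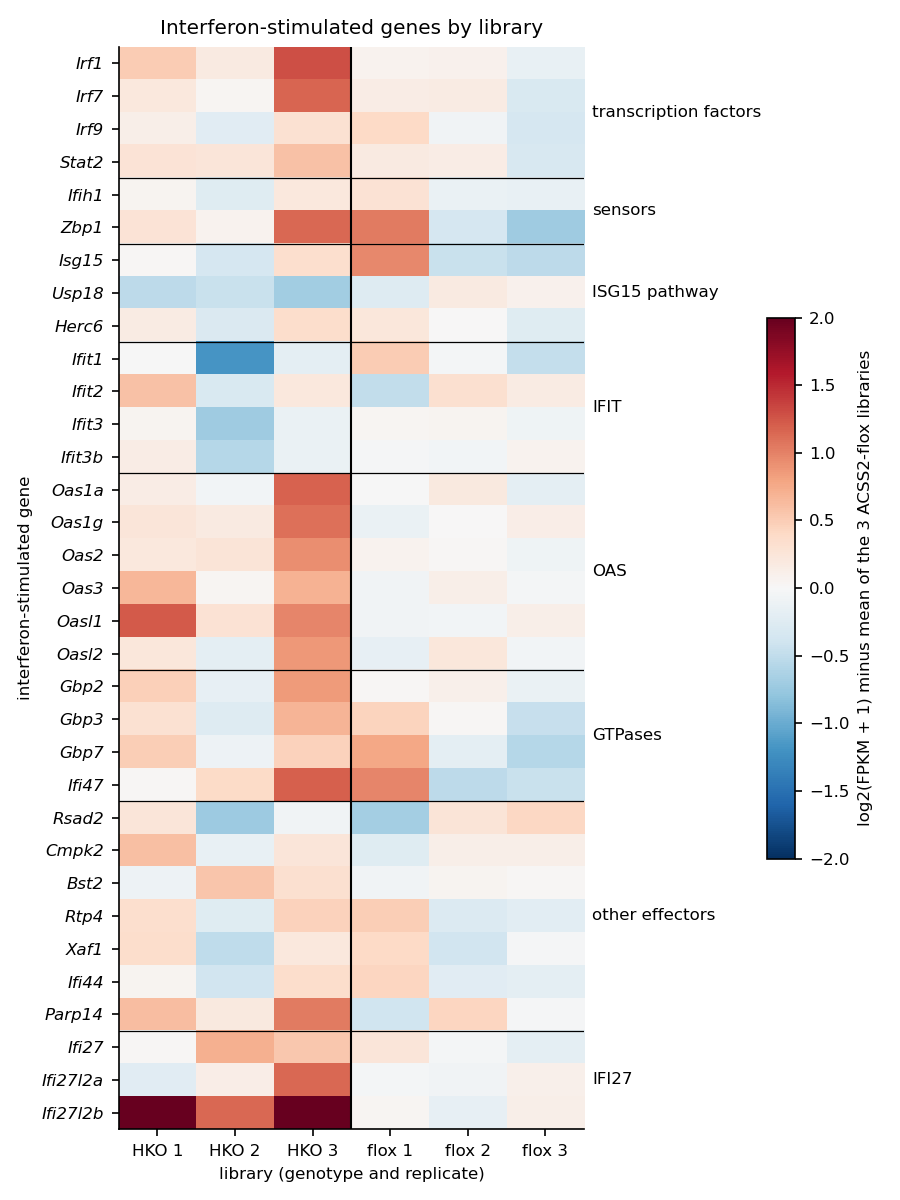
Deviation of each of the 33 interferon-stimulated genes present (rows, grouped by role) in each library (columns, ACSS2-HKO left and ACSS2-flox right) from the mean of the 3 ACSS2-flox libraries, on log2(FPKM + 1). Red is higher and blue lower, and the colour scale ends at 2 in either direction. Replicate 3 of ACSS2-HKO is red in most rows, ACSS2-HKO replicate 2 is blue for the IFIT genes, and the Ifi27l2b row is red in all ACSS2-HKO libraries.

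None of the 4 transcription factor genes passed the adjusted limma threshold, and all 4 had positive log2 fold changes, from 0.06 to 0.66, against 66.0% of all genes positive. Irf1, which both interferon types induce (chr11:53770014-53778374), read 11.8, 9.19 and 21.1 FPKM in ACSS2-HKO, against 8.45, 8.57 and 7.10 FPKM in ACSS2-flox. The groups did not overlap, and replicate 3 lay far above the other ACSS2-HKO libraries. The means were 14.0 ± 6.26 and 8.04 ± 0.819 FPKM (SD, n = 3), and limma gave a log2 fold change of 0.66 ± 0.28 at an adjusted p of 0.649. Without ACSS2-HKO replicate 3 the log2 fold change of Irf1 was 0.34. Irf7, the factor that amplifies interferon production (chr7:141263183-141266499), read 26.1, 23.1 and 51.8 FPKM in ACSS2-HKO, against 24.9, 25.2 and 18.0 FPKM in ACSS2-flox. Apart from ACSS2-HKO replicate 3 and ACSS2-flox replicate 3 these values lay close together, and the log2 fold change of 0.47 ± 0.31 (limma adjusted p = 0.725) was 0.12 without ACSS2-HKO replicate 3. Stat2, a subunit of ISGF3, read 8.07, 7.83 and 10.2 FPKM in ACSS2-HKO, against 7.43, 7.30 and 4.96 FPKM in ACSS2-flox. Its groups did not overlap by a narrow margin (log2 fold change 0.37 ± 0.21, limma adjusted p = 0.686), and the annotated gene overlaps Apof, a liver gene, by 753 bases. Irf9, the DNA-binding subunit of ISGF3, read 8.76, 6.70 and 10.1 FPKM in ACSS2-HKO, against 10.9, 7.58 and 6.16 FPKM in ACSS2-flox, with interleaved groups and a log2 fold change of 0.06 ± 0.24.

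Of the nucleic acid sensors among the members, Ifih1, which encodes the RNA sensor MDA5, had nearly equal means of 6.11 ± 1.09 FPKM in ACSS2-HKO and 6.09 ± 1.26 FPKM in ACSS2-flox (SD, n = 3). Zbp1, a sensor of Z-form nucleic acid that can start necroptosis, read 6.19, 5.19 and 12.1 FPKM in ACSS2-HKO, against 11.2, 3.68 and 2.63 FPKM in ACSS2-flox. Each genotype thus had a high library and lower ones, and the log2 fold change of 0.50 ± 0.46 (limma adjusted p = 0.810) moved between 0.14 and 1.02 with single libraries left out.

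The genes of the ISG15 system, in which a ubiquitin-like protein is joined to others, did not move as a unit. Isg15 itself (chr4:156199424-156200818) read 11.6, 8.84 and 14.7 FPKM in ACSS2-HKO, against 23.3, 8.14 and 7.66 FPKM in ACSS2-flox. The highest library was a control and the groups overlapped, with means of 11.7 ± 2.95 and 13.0 ± 8.87 FPKM (SD, n = 3) and a log2 fold change of 0.01 ± 0.39. Without ACSS2-flox replicate 1 it was 0.49, and without ACSS2-flox replicate 3 it was -0.25. Usp18, the protease that removes ISG15 and holds back IFNAR2 signalling (chr6:121245906-121270917), read 7.28, 7.67 and 6.34 FPKM in ACSS2-HKO, against 8.91, 12.4 and 11.6 FPKM in ACSS2-flox. All ACSS2-HKO libraries lay below all controls, with means of 7.10 ± 0.688 and 10.96 ± 1.82 FPKM (SD, n = 3), or 0.647 times the control. By limma the log2 fold change was -0.55 ± 0.19 at an adjusted p of 0.637, and the exact permutation p over the 20 arrangements of the libraries was 0.1, the smallest two-sided value that 3 against 3 allows. It stayed between -0.68 and -0.47 with single libraries left out, and was -0.62 without both distant libraries. Herc6, the ligase that attaches ISG15 in the mouse, read 1.85 to 3.44 FPKM in ACSS2-HKO and 1.97 to 3.09 FPKM in ACSS2-flox, with a log2 fold change of 0.07 ± 0.22.

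**Figure D3:**
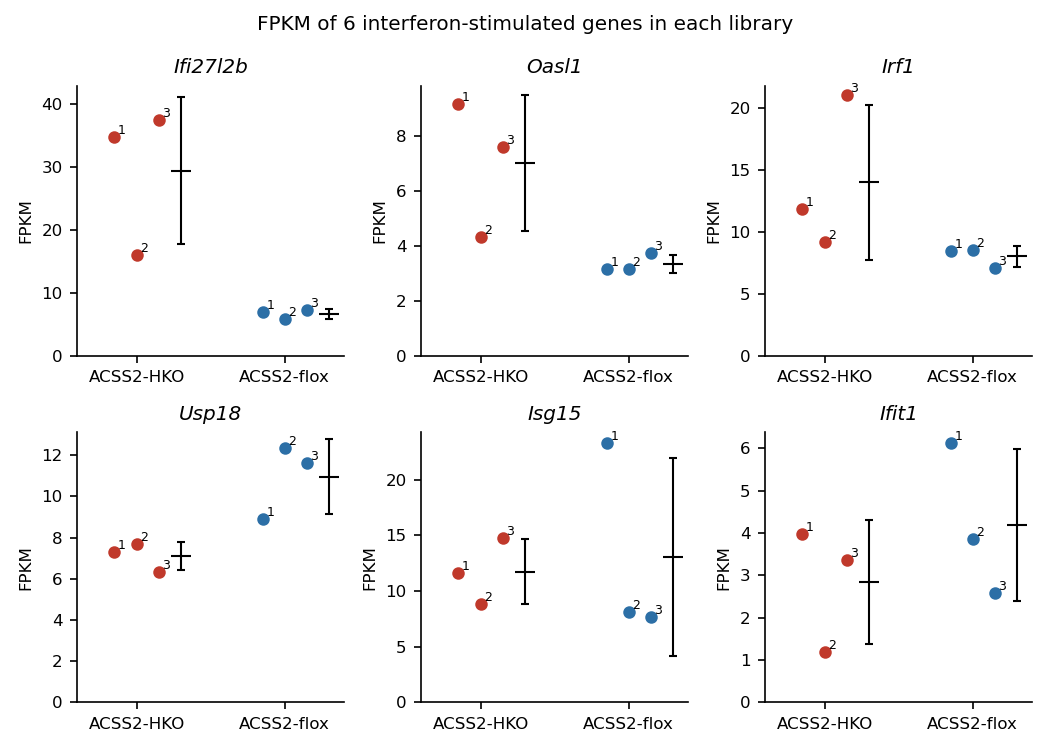
FPKM of 6 interferon-stimulated genes in each library, ACSS2-HKO (red) left and ACSS2-flox (blue) right, numbered by replicate, with the mean ± SD of 3 libraries as black bars. The genes were chosen for display after their values were seen. The groups do not overlap for Ifi27l2b, Oasl1, Irf1 and Usp18, and they overlap for Isg15 and Ifit1, where ACSS2-flox replicate 1 is highest (23.3 and 6.13 FPKM).

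IFIT proteins bind viral RNA and block its translation. They lie side by side on chromosome 19, and 3 of the 4 had negative log2 fold changes, against 3335 of all 9818 genes tested. Ifit1 (chr19:34640889-34650009) read 3.99, 1.19 and 3.37 FPKM in ACSS2-HKO, against 6.13, 3.86 and 2.58 FPKM in ACSS2-flox, -0.46 ± 0.36 as a log2 fold change (limma adjusted p = 0.774). Ifit3 read 8.22, 4.42 and 7.05 FPKM in ACSS2-HKO, against 8.08, 8.16 and 7.35 FPKM in ACSS2-flox. In both genes ACSS2-HKO replicate 2 was the lowest of the 6 libraries and the rest overlapped. Leaving it out brought the log2 fold change of Ifit1 to -0.10 and that of Ifit3 to -0.04. Ifit3b followed Ifit3, with 2.31, 0.998 and 1.71 FPKM in ACSS2-HKO and 1.93, 1.87 and 2.13 FPKM in ACSS2-flox. Its log2 fold change of -0.18 became 0.01 without ACSS2-HKO replicate 2. The longest open reading frames of Ifit3 and Ifit3b were identical at 99.1% of 1212 bases, so how their fragments were divided is uncertain, and both Ifit1 and Ifit3b lie inside the annotated span of Ifit1bl1. Ifit2 differed from its neighbours, reading 3.20, 1.28 and 2.25 FPKM in ACSS2-HKO and 1.0, 2.52 and 2.16 FPKM in ACSS2-flox, with its lowest value in ACSS2-flox replicate 1, where Ifit1 was highest.

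The OAS family includes synthetases of 2′-5′-linked oligoadenylates, which activate RNase L to cut RNA, and all 6 members had higher means in ACSS2-HKO. The 5 tested had positive log2 fold changes, against 66.0% of all genes, with a median of 0.46. That median was 0.21 without ACSS2-HKO replicate 3 and 0.14 without both distant libraries. Oasl1, a relative without synthetase activity that in mice represses translation of Irf7 (chr5:114923143-114937911), read 9.16, 4.32 and 7.59 FPKM in ACSS2-HKO, against 3.16, 3.16 and 3.73 FPKM in ACSS2-flox. The groups did not overlap, the controls lay close together, and the ACSS2-HKO libraries were spread over 2.47 FPKM (SD) around a mean of 7.02 FPKM. By limma its log2 fold change was 0.83 ± 0.25 at an adjusted p of 0.632, with an exact permutation p of 0.1, and leaving out any 1 library gave 0.64 to 1.10. Oas2 read 0.971, 1.02 and 2.24 FPKM in ACSS2-HKO, against 0.786, 0.725 and 0.595 FPKM in ACSS2-flox. Oas1g read 1.06, 0.971 and 2.71 FPKM in ACSS2-HKO, against 0.576, 0.750 and 0.897 FPKM in ACSS2-flox. Neither overlapped between the groups, at ratios of 2.01 and 2.13, but both rested on low values of 39 to 360 fragments a library. Without ACSS2-HKO replicate 3 their log2 fold changes were 0.23 and 0.21, against 0.46 ± 0.22 and 0.51 ± 0.26 with all libraries.

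The neighbouring synthetase gene Oas1a read 3.06, 2.53 and 7.27 FPKM in ACSS2-HKO, against 2.67, 3.20 and 2.21 FPKM in ACSS2-flox. Its difference rested on ACSS2-HKO replicate 3, and without that library the log2 fold change was 0.05 in place of 0.42 ± 0.32. Oas1a and Oas1g shared 96.7% of 1104 bases of their longest open reading frames, so their division of fragments is uncertain too. Oasl2 read 2.55 to 6.38 FPKM in ACSS2-HKO and 2.63 to 3.74 FPKM in ACSS2-flox, and its log2 fold change of 0.30 ± 0.28 was 0.02 without ACSS2-HKO replicate 3 and -0.06 without both distant libraries. Oas3, below the filter, read 1.38, 0.549 and 1.45 FPKM in ACSS2-HKO, against 0.434, 0.629 and 0.472 FPKM in ACSS2-flox, and ACSS2-HKO replicate 2 lay inside the control range.

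The interferon-induced GTPases attack the vacuoles of intracellular microbes, and several respond more to interferon gamma. Gbp2 read 6.95, 4.12 and 9.31 FPKM in ACSS2-HKO, against 4.80, 5.16 and 4.23 FPKM in ACSS2-flox, 0.39 ± 0.26 as a log2 fold change (limma adjusted p = 0.735). Ifi47, an immunity-related GTPase, read 6.60, 8.73 and 16.2 FPKM in ACSS2-HKO, against 13.6, 4.19 and 4.49 FPKM in ACSS2-flox. As for Zbp1, ACSS2-flox replicate 1 was the highest control and ACSS2-HKO replicate 3 the highest of all. Gbp7 read 3.03 to 5.06 FPKM in ACSS2-HKO and 1.89 to 6.33 FPKM in ACSS2-flox, and Gbp3 read 3.80 to 8.20 FPKM and 3.18 to 6.78 FPKM in the same order. The log2 fold changes of Ifi47, Gbp7 and Gbp3 were 0.54 ± 0.44, 0.28 ± 0.34 and 0.24 ± 0.30, and all of these groups overlapped.

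Among the other effectors, Bst2, which tethers budding viruses to the cell, was the most abundant member, with a mean of 168 FPKM over the 6 libraries. It read 141, 223 and 190.5 FPKM in ACSS2-HKO, against 144, 157 and 154 FPKM in ACSS2-flox, with ACSS2-HKO replicate 1 below every control (log2 fold change 0.26 ± 0.21, limma adjusted p = 0.787). Parp14, an ADP-ribosyltransferase, read 7.07, 5.01 and 9.78 FPKM in ACSS2-HKO, against 2.99, 6.09 and 4.16 FPKM in ACSS2-flox. Its groups overlapped through 2 libraries, and its log2 fold change of 0.61 ± 0.28 (limma adjusted p = 0.661) was 0.20 without both distant libraries. Rsad2, which encodes the antiviral enzyme viperin, read 2.89, 0.993 and 2.14 FPKM in ACSS2-HKO, against 1.06, 2.93 and 3.36 FPKM in ACSS2-flox, with 1 low library in each group. The adjoining Cmpk2, a mitochondrial nucleotide kinase gene read from the opposite strand, had the same low libraries, at 2.71, 1.21 and 1.89 FPKM in ACSS2-HKO and 1.08, 1.67 and 1.64 FPKM in ACSS2-flox. Their log2 fold changes were -0.18 ± 0.34 and 0.23 ± 0.23. Rtp4, Xaf1 and Ifi44 had log2 fold changes of 0.18 ± 0.27, 0.02 ± 0.29 and 0.01 ± 0.26, and in each ACSS2-HKO replicate 2 lay lowest of its group and ACSS2-flox replicate 1 highest of its own.

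The Ifi27 family, small hydrophobic membrane proteins encoded side by side on chromosome 12, held the largest difference of all members. Ifi27l2b (chr12:103450898-103457223) read 34.8, 16.1 and 37.5 FPKM in ACSS2-HKO, against 6.92, 5.83 and 7.33 FPKM in ACSS2-flox. Every ACSS2-HKO library held more than any control, with 643 to 1651 fragments against 242 to 313. The means were 29.4 ± 11.7 and 6.69 ± 0.770 FPKM (SD, n = 3), and the log2 fold change was 1.90 ± 0.31, or 1.80 above the median of all genes. The limma adjusted p was 0.452, the same as the lowest over all genes, and the exact permutation p was 0.1. Leaving out any 1 library gave log2 fold changes of 1.69 to 2.28, and without ACSS2-HKO replicate 2 the limma adjusted p was 0.0297, among adjusted p-values of 0.0297 to 0.760 over those 6 fits.

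The other family members did not follow it to that extent. Ifi27l2a (chr12:103433873-103443680) read 12.6, 16.4 and 34.2 FPKM in ACSS2-HKO, against 14.4, 14.1 and 16.1 FPKM in ACSS2-flox. Only ACSS2-HKO replicate 3 stood above the others by much, and without it the log2 fold change of 0.35 ± 0.32 was -0.04. Ifi27 read 40.3, 65.1 and 58.0 FPKM in ACSS2-HKO, against 46.7, 38.4 and 34.4 FPKM in ACSS2-flox, with 1 ACSS2-HKO library inside the control range and 0.43 ± 0.23 as a log2 fold change (limma adjusted p = 0.675). Ifi27 is annotated inside the span of Ifi27l2a and Ifi27l2b shares 89.4% of 273 aligned bases with Ifi27l2a, so fragments of the 3 genes may have been exchanged.

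Upstream of the members, the interferon genes that had a row were at the limit of detection. The listed interferon genes without a row were not analysed here. Ifnk, the only type I or III interferon gene of 20 listed that had a row, was listed at 0 in all 3 ACSS2-HKO libraries and read 0, 0.0328 and 0 FPKM in ACSS2-flox. Ifng, the interferon gamma gene, read 0.0234, 0 and 0.209 FPKM in ACSS2-HKO, against 0.0490, 0 and 0.0216 FPKM in ACSS2-flox, where the highest value stood for 10 fragments. The 9 tested receptor and kinase genes all had positive log2 fold changes, against 66.0% of all genes, with a median of 0.25 against 0.10. Without both distant libraries Jak1, Jak2 and Ifngr1 had -0.10, -0.11 and -0.10. Ifnar1 read 5.81, 6.17 and 7.03 FPKM in ACSS2-HKO and 4.65, 5.15 and 5.18 FPKM in ACSS2-flox, without overlap. By the smallest p the genes of this list were Ifngr2, Il10rb and Tyk2, with log2 fold changes of 0.65 ± 0.27, 0.38 ± 0.19 and 0.38 ± 0.20.

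Sensor and adaptor genes above interferon were positive in 14 of 14 tested, against 66.0% of all genes, with a median of 0.45 against 0.10. Of these, 6 were higher without overlap, against 12.5% of all genes. Tlr3 and Tlr7, receptors for RNA, averaged under 1 FPKM in ACSS2-flox and were tested only through their ACSS2-HKO values, and Tlr3 is among the 6. Ddx58, the gene of the RNA sensor RIG-I, read 6.52, 6.32 and 7.92 FPKM in ACSS2-HKO, against 4.74, 4.89 and 4.04 FPKM in ACSS2-flox, 0.51 ± 0.18 as a log2 fold change (limma adjusted p = 0.637). Irf5 and Ticam1, the gene of the adaptor TRIF, had log2 fold changes of 0.58 ± 0.25 and 0.55 ± 0.24. Of 13 negative regulators tested 10 were positive, against 66.0% of all genes, with a median of 0.35 against 0.10. Socs3, which mainly restrains IL-6 family signalling, read 3.96, 5.62 and 6.28 FPKM in ACSS2-HKO, against 1.61, 1.95 and 2.17 FPKM in ACSS2-flox, and the phosphatase genes Ptpn6 and Ptpn1 had log2 fold changes of 0.57 ± 0.23 and 0.69 ± 0.29.

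The wider set of 53 tested interferon-stimulated genes outside the members had 48 positive log2 fold changes, a median of 0.33, 8 genes higher and 0 lower at an unadjusted limma p under 0.05, and 13 higher and 0 lower without overlap. Over all genes the shares were 66.0% positive, 6.09% higher and 1.50% lower at that p, and 12.5% higher and 2.94% lower without overlap. Sp110 and Slfn8 of this list, like Gbp4 and Gbp5 of the next, were tested only through their ACSS2-HKO values. Trim14, Trim21 and Lgals3bp had the smallest p, with log2 fold changes of 0.71 ± 0.21, 0.49 ± 0.16 and 0.84 ± 0.27. The 30 tested genes that respond mainly to interferon gamma had 28 positive values and a median of 0.33, with Tap1, H2-D1 and Tapbp at 0.75 ± 0.19, 0.54 ± 0.21 and 0.43 ± 0.21. Class I genes such as H2-D1 have near-identical relatives, so their counts are uncertain. None of these lists had a gene past the adjusted limma threshold. Without ACSS2-HKO replicate 3 the medians were 0.22 for receptors and kinases, 0.27 for sensors and adaptors, 0.28 for negative regulators, 0.16 for the wider list and 0.06 for the gamma-responsive list, against 0.11 for all genes.

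**Figure D4:**
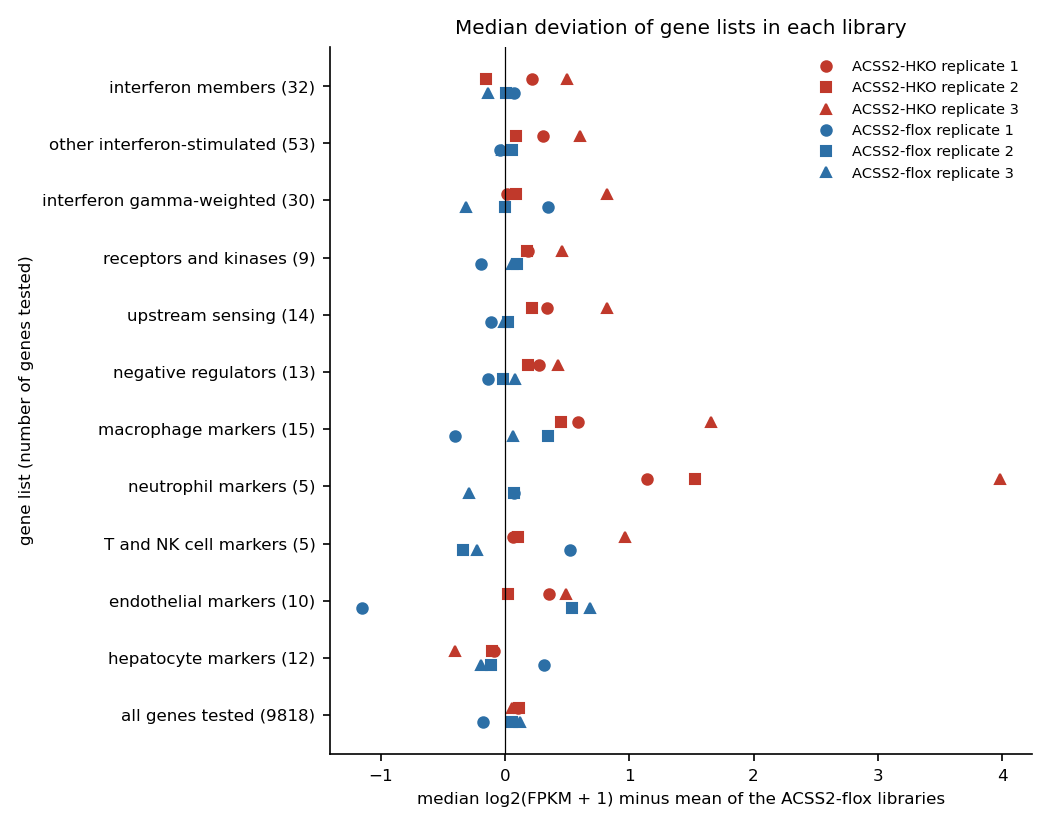
Median deviation of 12 gene lists from the ACSS2-flox mean, on log2(FPKM + 1), in each ACSS2-HKO (red) and ACSS2-flox (blue) library, with the number of tested genes in brackets. Circles, squares and triangles are replicates 1, 2 and 3. ACSS2-HKO replicate 3 lies highest of its group for the interferon members (0.50), the macrophage markers (1.65) and the neutrophil markers (3.98). The last median is over the 5 neutrophil markers of 13 present that reached the filter. Among them Retnlg averaged 0.655 FPKM in ACSS2-flox and was tested only through its ACSS2-HKO values.

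Markers of several other liver cell types were highest in ACSS2-HKO replicate 3 as well, and those of others were not. In whole liver fewer cells of a type and less RNA per cell cannot be told apart. All 15 Kupffer cell and macrophage markers were positive, against 66.0% of all genes. Their summed level was 1003, 982 and 2371 FPKM in ACSS2-HKO, against 534, 868 and 735 FPKM in ACSS2-flox. The 13 neutrophil markers present summed to 39.9, 55.6 and 363 FPKM in ACSS2-HKO, against 18.2, 14.6 and 8.46 FPKM in ACSS2-flox, and the 14 T and NK cell markers to 17.2, 14.4 and 40.2 FPKM in ACSS2-HKO, against 31.8, 11.1 and 10.5 FPKM in ACSS2-flox. The leading macrophage marker Lyz2 read 159, 185 and 458 FPKM in ACSS2-HKO, against 90.3, 170.2 and 146 FPKM in ACSS2-flox, followed by Cd5l and C1qb. S100a9 led the neutrophil list with 15, 27.9 and 177 FPKM in ACSS2-HKO, against 9.40, 7.90 and 3.09 FPKM in ACSS2-flox, followed by S100a8 and Retnlg. Ccl5 led the T and NK cell list with 8.19, 4.66 and 17.2 FPKM in ACSS2-HKO, against 17.4, 4.35 and 3.58 FPKM in ACSS2-flox, followed by Gzma and Cd3g. ACSS2-HKO replicate 3, with the highest interferon-stimulated genes, was thus highest in all 3 of these lists. It was also highest in the sums of monocyte and dendritic cell (50.3 FPKM), B and plasma cell (13.0 FPKM) and cholangiocyte markers (146 FPKM). The 9 stellate cell markers summed to 190, 143 and 135 FPKM in ACSS2-HKO, against 99.4, 131 and 169 FPKM in ACSS2-flox. ACSS2-HKO replicate 2, where the median member deviated by -0.15, had macrophage and neutrophil sums above every control. ACSS2-flox replicate 1, where Isg15, Zbp1, Ifi47 and Ifit1 were highest of their group, had the highest lymphocyte sum among the controls. The hepatocyte markers lay the other way, as 10 of 12 were negative while 66.0% of all genes were positive. The median of their log2 fold changes was -0.23, against 0.10 for all genes. Without both distant libraries it was -0.10, against 0.03 for all genes. From the mean of the controls the median hepatocyte marker deviated by -0.40 in ACSS2-HKO replicate 3 and by 0.31 in ACSS2-flox replicate 1. These were the lowest and the highest of the 6 libraries. No marker in these lists was at 0 in every library. The part of these cells in the interferon-stimulated genes was not tested.

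Plasmacytoid dendritic cells, the strongest known producers of type I interferon, had defining markers near 0. Siglech read 0.01 to 0.0624 FPKM in ACSS2-HKO and 0.0184 to 0.198 FPKM in ACSS2-flox. Ccr9 read at most 0.0317 FPKM in ACSS2-HKO and at most 0.0654 FPKM in ACSS2-flox. Of the 10 listed markers only Ly6d reached the filter, at 127, 31.2 and 94.7 FPKM in ACSS2-HKO and 6.74, 12.6 and 10.3 FPKM in ACSS2-flox, and other cell types also express that gene. Next by mean level, Clec10a read 0.339, 0.445 and 1.43 FPKM in ACSS2-HKO, against 0.415, 0.322 and 0.226 FPKM in ACSS2-flox, and Tcf4 read 0.410, 0.348 and 0.549 FPKM in ACSS2-HKO, against 0.276, 0.329 and 0.388 FPKM in ACSS2-flox. Both were highest in ACSS2-HKO replicate 3 and overlapped between the groups. The 10 endothelial markers summed to 220, 185 and 213 FPKM in ACSS2-HKO, against 67.6, 245 and 286 FPKM in ACSS2-flox, so ACSS2-flox replicate 1 stood apart in them as well.

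Within the controls the members split by how they read in ACSS2-flox replicate 1. Relative to the mean of the other 2 controls on the log2 scale, Zbp1, Ifi47, Isg15 and Gbp7 were 1.57, 1.45, 1.45 and 1.15 higher there, while Rsad2, Ifit2 and Parp14 read -1.01, -0.74 and -0.60. It was the highest control for 15 of 32 members and the lowest for 9, for which no share over all genes was computed. Of all 6 libraries it was the highest for 8 members and the lowest for 5, against 15.7% and 52.9% of all genes. Over all tested genes this deviation was related to the recovered gene length (Spearman's rho -0.423 over 9818 genes of the same libraries), and over the 32 members hardly so (-0.044). These are descriptions across genes, which share the libraries and are not replicates.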

How the data were processed

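RNA sequencing of whole liver was read from a table of FPKM values per gene that the authors deposited (mm10, and DESeq2 among the tools, per the submitters' processing notes); the sources used here name no aligner, counter or strand setting. The 35 members, the other gene lists and the tests were chosen with earlier results of these data known. The named genes of each pathway list were the 3 with the smallest p; marker genes were named by the highest mean FPKM, and further genes (Ifnar1, Siglech, Ccr9) after their values were seen. The 9818 of 16135 genes that averaged 1 FPKM or more were tested on log2(FPKM + 1) with limma 3.58.1 (R 4.3.3; lmFit, eBayes with trend), which understates changes of low genes, with Benjamini-Hochberg adjustment over all of them. Single values had a two-sided exact permutation test, which cannot go below 0.1. Whole fragments were recovered from the FPKM steps for 16134 genes (99.99%, within 0.01 of a whole number) and gave the depths. The code was tested on simulated data. Alternatives were other pseudocounts, filters, scalings and weights, a replicate block and libraries left out; a gene length correction and voom on the recovered fragments were added after seeing the data. Same-numbered libraries did not deviate together (correlations 0.013, 0.0032 and -0.063), so the numbers were not taken as pairs, although this check cannot exclude a pairing. Promoter sequences are from RefSeq (GRCm38.p6), and open reading frames are the longest in the GENCODE M21 transcripts.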

Additional observations from a re-analysis of the deposited data

How the results depend on the processing

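Over 17 other settings, 482 of 531 recomputed member values kept their sign and 20 of 32 members kept it throughout. The labels do not say whether the replicate numbers pair the libraries, and they were not taken as pairs in the main fit. With the replicate block 1 member (Ifi27l2b, limma adjusted p = 0.0479) and 4 of all genes passed the adjusted threshold, against 0 and 0. Array weights gave 6 of 32 members higher at an unadjusted p under 0.05 (753 of 9818 genes), and leaving out both distant libraries 5 (527 of 9818 genes), with 11 higher and 2 lower without overlap (23.4% and 17.7% of all genes). With single libraries left out, members past the adjusted threshold numbered 0 to 1, against 0 to 3 of all 9818 genes. At the unadjusted threshold 2 to 6 members were higher and 0 to 1 lower, against 282 to 579 and 74 to 460 of all genes. Without overlap 6 to 11 members were higher and 1 to 3 lower, against 16.6% to 21.8% and 3.46% to 14.6% of all genes.

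Small log2 fold changes changed sign, and the cause was not tested. With a pseudocount of 5 Isg15 was -0.0165. Median ratio scaling, under which the median of all genes was -0.01 against 0.10, gave Irf9 -0.0585, Ifih1 -0.1106, Isg15 -0.1169, Herc6 -0.0285, Xaf1 -0.0793 and Ifi44 -0.0844. Quantile normalization gave Irf9 -0.0316, Ifih1 -0.11, Isg15 -0.0345, Herc6 -0.0884, Ifit2 -0.0081, Xaf1 -0.15 and Ifi44 -0.17. The length correction gave Irf9 -0.0574, Ifih1 -0.12, Isg15 -0.0426, Herc6 -0.0574, Xaf1 -0.11 and Ifi44 -0.11. Array weights gave Ifit2 -0.0183, and leaving out both distant libraries gave Ifit2 -0.11, Oasl2 -0.0643 and Ifi27l2a -0.0638. With single libraries left out the ranges were -0.10 to 0.26 for Irf9, -0.10 to 0.15 for Ifih1, -0.25 to 0.49 for Isg15, -0.0653 to 0.25 for Herc6, -0.0852 to 0.39 for Ifit2, -0.35 to 0.0114 for Ifit3b, -0.0037 to 0.67 for Gbp7, -0.52 to 0.0917 for Rsad2, -0.17 to 0.28 for Xaf1, -0.16 to 0.23 for Ifi44 and -0.0442 to 0.64 for Ifi27l2a.

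Over all genes, 598 were higher and 147 lower at an unadjusted limma p under 0.05. Median ratio scaling gave 371 and 302, quantile normalization 391 and 357, and the length correction 394 and 393. No filter gave 917 higher and a filter of 5 FPKM 311 higher. Array weights gave 382 lower, leaving out both distant libraries 371 lower, leaving out ACSS2-flox replicate 1 460 lower, and leaving out ACSS2-HKO replicate 3 282 higher and 74 lower. Leaving out ACSS2-HKO replicate 2 gave 3 genes past the adjusted threshold.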
